A study of Drosophila melanogaster with 13 samples.

Results

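The genes of the mitochondrial ribosome were followed in whole testes of young Drosophila melanogaster males of 5 genotypes. The members were the genes with a probe set (the group of short array probes that reports 1 transcript) paired with exactly 1 platform gene symbol that starts with mRpL or mRpS. Where a gene had several such probe sets, the one with the highest mean over all 13 arrays stood for it. This gave 71 probe sets and 69 genes, 44 of them named for the large subunit (mRpL) and 25 for the small subunit (mRpS), among 11982 genes with such a probe set. All 69 members were among the 8719 genes tested, and no member value lay at the lowest value of the table.

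RNA of testes from flies 0 to 1 day old, raised at 25 °C and dissected without seminal vesicles or accessory glands, was hybridised to 13 Affymetrix expression arrays, 1 per biological replicate. The genotypes were aly[2]/aly[5p] with 3 arrays, sa[1]/sa[2] with 3 arrays, magn[12c]/magn[23b] with 2 arrays, magn[12c]/magn[12c];pSC2 with 2 arrays, and the strain that the labels call WT with 3 arrays, given as red[1], e[1] or as red[1]/e[1]. The gene always early (aly) encodes a part of a testis-specific chromatin complex, spermatocyte arrest (sa) encodes a testis-specific TBP-associated factor, and magn alleles affect the polyubiquitin gene Ubi-p63E. The series describes them as meiotic arrest mutants. The labels do not say what pSC2 is. Nor do they say whether the mutants carry the red and e markers of the WT strain. Whole testes mix germ cells and somatic cells, so fewer cells of a type and less RNA per cell cannot be told apart in any value below.

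Mitochondria carry their own ribosomes, which translate the few proteins encoded by mitochondrial DNA, all of them parts of the respiratory chain and ATP synthase in animals. The RNAs of this ribosome come from mitochondrial DNA, whereas its proteins are encoded in the nucleus, made in the cytosol and imported. Some of the proteins descend from bacterial ribosomal proteins, and others have no bacterial counterpart. In Drosophila spermatids the mitochondria fuse into a large body, the nebenkern, that elongates along the growing sperm tail.

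The mutated genes were checked first, as log2 values. Ubi-p63E read 3.93 and 5.47 in magn[12c]/magn[23b] testes and 3.88 and 3.59 in magn[12c]/magn[12c];pSC2 testes, against 14.75, 14.65 and 14.90 in WT testes. The sa transcript read 6.15, 6.25 and 5.84 in sa testes, against 11.13, 10.80 and 11.07 in WT testes. The aly transcript read 7.29, 7.34 and 7.23 in aly testes, against 6.27, 5.95 and 6.28 in WT testes, so its level did not check the aly label. Summed signals of marker lists (log2 of the sum of linear values) showed what else moved with the genotypes. The 11 spermatid markers summed to 14.25 to 14.39 in aly, 15.29 to 15.75 in sa, 17.12 to 17.18 in magn[12c]/magn[23b], 16.76 to 16.81 in magn[12c]/magn[12c];pSC2 and 17.25 to 17.37 in WT, with dj, w-cup, c-cup and t-cup at or below 4 in every aly array. The 8 primary spermatocyte markers, aly and sa among them, summed to 15.64 to 15.77 in aly, 13.24 to 13.42 in sa, 13.65 to 13.66 in magn[12c]/magn[23b], 13.69 to 13.73 in magn[12c]/magn[12c];pSC2 and 12.56 to 12.86 in WT. Of the 5 hemocyte markers on the array, He and Sr-CI were at or below 4 in all arrays, and the sum was 7.80 to 9.23 over the mutant arrays and 5.89 to 6.20 in WT. Of the 6 fat body markers, Yp1 and Yp2 were at or below 4 in all arrays, and the sum was 7.59 to 8.73 in aly and 11.59 to 12.36 in WT. Of the 6 early germline markers, 5 averaged above 4 in every genotype and vas was at or below 4 in all 13 arrays. The sum was 12.16 to 12.24 in aly, 11.29 to 11.67 in sa, 11.44 to 11.97 in magn and 11.68 to 12.06 in WT. Of the 5 cyst and hub markers, 2 averaged above 4 in every genotype. The others, tj, zfh1 and upd1, were at or below 4 in all arrays. The cyst and hub sum was 8.40 to 9.85 over all arrays. The 6 sheath muscle markers summed to 10.58 to 11.25 in aly and 11.02 to 11.67 in sa. That sum was 11.87 to 12.61 in magn and 11.36 to 12.20 in WT. The part of cell composition in the results below was not tested.

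One WT array stood apart. The 8 accessory gland markers, a tissue that dissection should remove, summed to 17.02 in WT replicate 2, against 14.49 and 13.70 in the other WT arrays, and to 16.24 to 16.31 in magn[12c]/magn[12c];pSC2 testes, 13.16 to 13.30 in magn[12c]/magn[23b], 13.43 to 14.81 in sa and 12.50 to 13.28 in aly. WT replicate 2 also gave the lowest value of the WT group for 66 of the 69 members, and WT replicate 1 the highest for 64. Counts of all 69 members called against WT are therefore given with and without WT replicate 2. Counts by subset, array overlap, order of means, pattern of calls, gene list or centring used all arrays and were not repeated without it. The 3′ minus 5′ difference of the GAPDH control probe sets, a sign of RNA length, was 1.22 to 1.52 in aly, 1.48 to 2.15 in sa, 1.12 to 1.5 in magn[12c]/magn[23b], 1.46 to 1.97 in magn[12c]/magn[12c];pSC2 and 1.08 to 1.29 in WT. It was largest in sa replicate 3, as were those of the ACTIN and eIF-4a controls. There GAPDH read 2.15, ACTIN 2.24 and eIF-4a 3.75. The other sa arrays read 1.68 and 1.48 for GAPDH, 1.15 and 1.06 for ACTIN, and 3.19 and 2.72 for eIF-4a. That replicate 3 was also the highest sa array for 63 members. The mean of the 18S ribosomal RNA control probe sets was 8.42 to 9.71 in aly, 6.20 to 12.14 in sa, 9.54 to 11.50 in magn[12c]/magn[23b], 9.20 to 11.84 in magn[12c]/magn[12c];pSC2 and 6.77 to 6.92 in WT. The part of either in the results was not tested.

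Members were higher in the mutant testes than in WT testes, most in aly. The median log2 value of the 69 members was 11.76, 11.88 and 11.72 in the aly arrays, 11.10, 11.25 and 11.47 in the sa arrays, 10.29 and 10.19 in the magn[12c]/magn[23b] arrays, 10.53 and 10.60 in the magn[12c]/magn[12c];pSC2 arrays, and 9.78, 9.12 and 9.45 in the WT arrays. No genotype's array medians overlapped with those of another. As means over arrays these medians were 11.79 ± 0.08 in aly (SD, n = 3), 11.27 ± 0.18 in sa (n = 3), 10.24 ± 0.07 in magn[12c]/magn[23b] (n = 2), 10.57 ± 0.05 in magn[12c]/magn[12c];pSC2 (n = 2) and 9.45 ± 0.33 in WT (n = 3). The WT arrays had the widest spread.

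**Figure D1:**
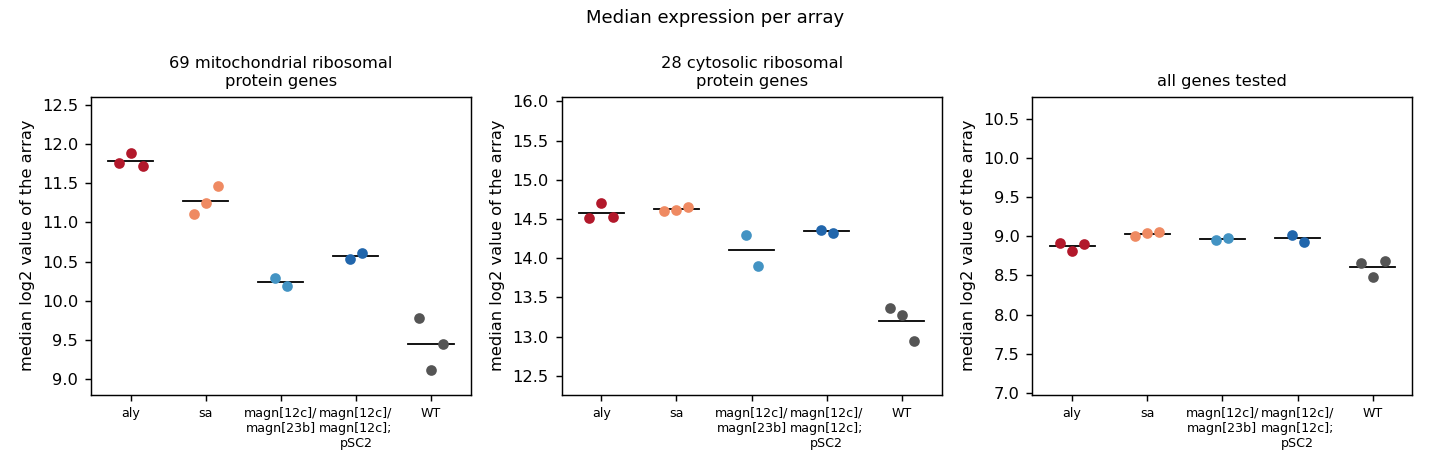
Median log2 value per array of the 69 mitochondrial ribosomal protein genes, of 28 cytosolic ribosomal protein genes and of all genes tested, with 1 point per array, the genotypes in columns and bars at the group mean, where the panels cover the same number of log2 units. The mitochondrial set steps down from aly through sa to the magn combinations and WT, while the cytosolic set has overlapping aly and sa arrays and its lowest arrays in WT.

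A gene was called when the limma fit gave a Benjamini-Hochberg adjusted p under 0.05 and a change of at least 2-fold. In aly testes 60 of 69 members rose and 0 fell relative to WT, or 87.0% of the members, where 45.6% of all genes tested were called higher and 24.8% lower. In sa testes 59 rose and 0 fell, or 85.5%, against 40.9% of all genes higher and 21.6% lower. In magn[12c]/magn[12c];pSC2 testes 41 rose and 0 fell, or 59.4%, against 32.2% higher and 16.8% lower. In magn[12c]/magn[23b] testes 24 rose and 0 fell, or 34.8%, which lies closer to the share of all genes, 25.5% higher and 12.4% lower. Without WT replicate 2 the counts were 59 in aly, 57 in sa, 35 in magn[12c]/magn[12c];pSC2 and 11 in magn[12c]/magn[23b], and every one of these genes was among those called with all arrays. The magn[12c]/magn[23b] count was 14 without replicate 1 of that genotype, so it depended on single arrays. All aly arrays lay above all WT arrays for 67 members (54.9% of all genes did so), all sa arrays for 66 (51.9%), both magn[12c]/magn[23b] arrays for 54 (45.7%) and both magn[12c]/magn[12c];pSC2 arrays for 63 (50.8%).

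Median changes of the members told the same order. The median log2 change was 2.37 in aly, a 5.16-fold rise, against 0.77 over all genes tested. It was 1.67 in sa, or 3.19-fold, against 0.66 over all genes. It was 0.75 in magn[12c]/magn[23b], or 1.68-fold, against 0.33, and 1.14 in magn[12c]/magn[12c];pSC2, or 2.21-fold, against 0.46. The middle 50% of the members spanned 1.52 to 2.82 in aly, 1.29 to 2.23 in sa, 0.50 to 1.04 in magn[12c]/magn[23b] and 0.75 to 1.45 in magn[12c]/magn[12c];pSC2. These comparisons share the WT arrays.

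The order of the genotypes recurred gene by gene. In 41 of 69 members the group means ran aly, sa, magn[12c]/magn[12c];pSC2, magn[12c]/magn[23b] and WT from high to low, which 17.4% of all genes tested also did. The mean was lowest in WT for 61 members, against 46.3% of all genes. It was highest in aly for 54 members, in sa for 14, and in magn[12c]/magn[23b] for 1, mRpL24. Of all genes, 40.5% had their highest mean in aly, 16.4% in sa and 10.5% in magn[12c]/magn[23b]. The sa count, 20.3% of the members, was near its share. No member had its highest mean in WT, where 21% of all genes had theirs. Counted by calls against WT, 22 members rose in all 4 mutant genotypes, 18 rose in all but magn[12c]/magn[23b], 16 rose in aly and sa alone, and 7 were called in none. The other 6 had another pattern of calls. The share of all genes with each pattern is not given here, so these counts describe the members only.

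**Figure D2:**
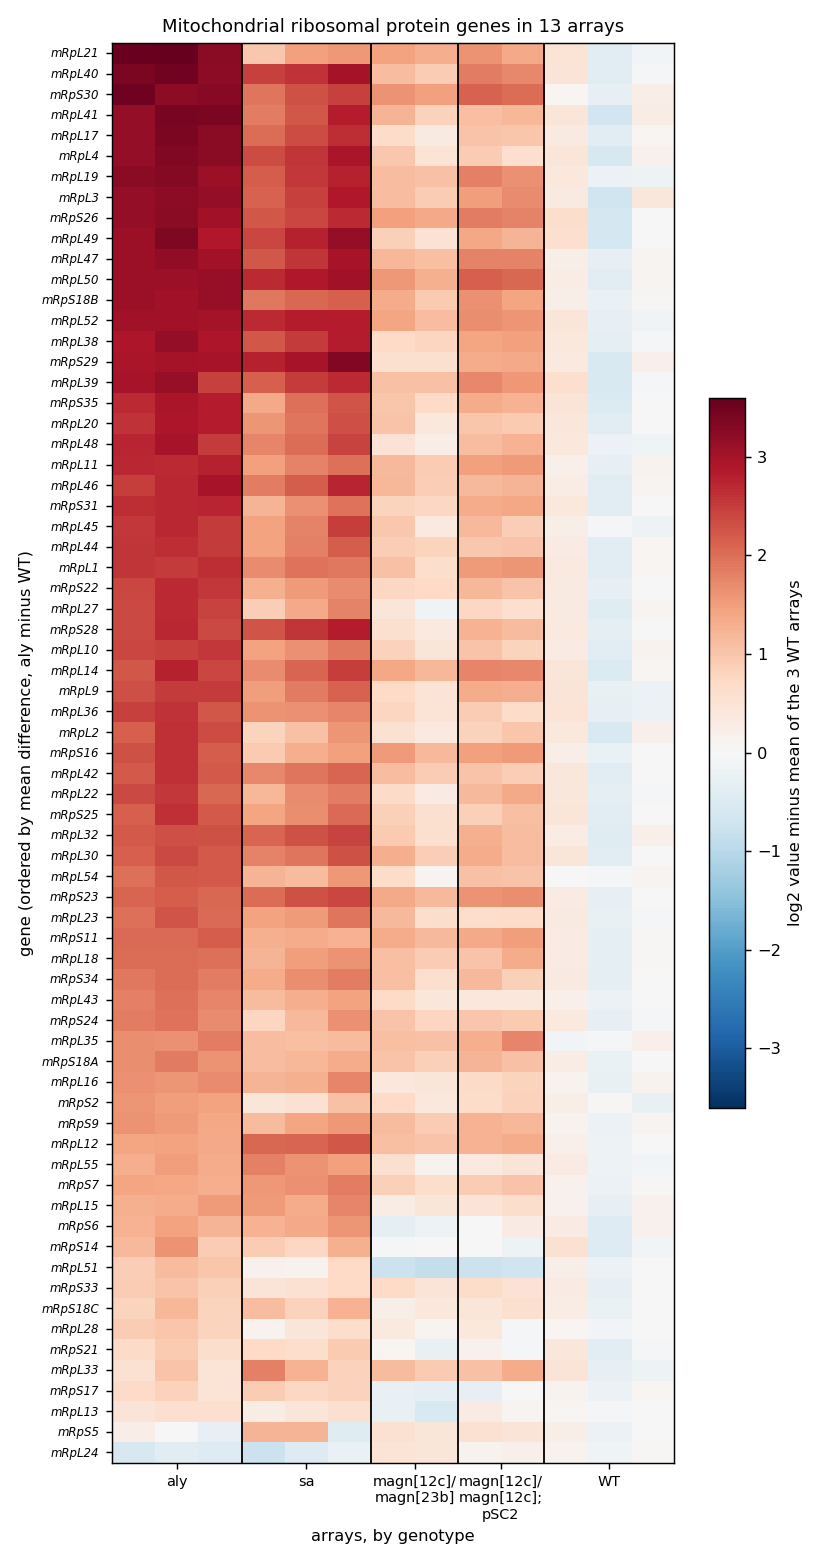
Log2 value of each of the 69 members in each of the 13 arrays minus the gene's mean over the 3 WT arrays, red for higher and blue for lower, with genes ordered by the aly minus WT change and arrays grouped by genotype. Red dominates the aly and sa columns, the magn columns are paler, and mRpL24 at the bottom and mRpL51 run against the rest.

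mRpL40, a protein of the central protuberance of the large subunit in mammals, was among the 6 largest rises in aly, sa and magn[12c]/magn[12c];pSC2. It read 12.80, 12.88 and 12.63 in aly, 11.89, 12.02 and 12.41 in sa, 10.54 and 10.32 in magn[12c]/magn[23b], 11.26 and 11.14 in magn[12c]/magn[12c];pSC2, and 9.88, 9.01 and 9.36 in WT. Every mutant array lay above every WT array. The log2 change was 3.35 in aly (SE 0.20, limma adjusted p = 2.23e-09), 2.69 in sa (SE 0.20, adjusted p = 4.39e-08), 1.01 in magn[12c]/magn[23b] (SE 0.22, adjusted p = 0.0019) and 1.78 in magn[12c]/magn[12c];pSC2 (SE 0.22, adjusted p = 1.35e-05).

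mRpL50, a large subunit protein without a bacterial counterpart, had the largest rise of the members in magn[12c]/magn[12c];pSC2. Its values were 12.30, 12.29 and 12.35 in aly, 11.92, 12.10 and 12.23 in sa, 10.78 and 10.51 in magn[12c]/magn[23b], 11.39 and 11.30 in magn[12c]/magn[12c];pSC2, and 9.50, 8.85 and 9.32 in WT. The mutant arrays all lay above the WT arrays. The log2 change was 3.09 in aly, 2.86 in sa, 1.42 in magn[12c]/magn[23b] and 2.12 in magn[12c]/magn[12c];pSC2, with SEs of 0.16 to 0.18 and a highest limma adjusted p of 2.57e-05.

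mRpS30, which mammalian structures place in the large subunit despite its name, had the largest rise in magn[12c]/magn[23b]. It read 12.09, 11.79 and 11.86 in aly, 10.51, 10.86 and 11.03 in sa, 10.20 and 10.06 in magn[12c]/magn[23b], 10.69 and 10.60 in magn[12c]/magn[12c];pSC2, and 8.64, 8.27 and 8.83 in WT. The log2 change was 3.33 in aly, 2.22 in sa, 1.55 in magn[12c]/magn[23b] and 2.07 in magn[12c]/magn[12c];pSC2, each called. The sa and magn[12c]/magn[12c];pSC2 arrays overlapped.

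mRpS29, the small subunit protein called DAP3 in mammals, which binds GTP there, had the largest rise in sa. It read 12.55, 12.61 and 12.58 in aly, 12.39, 12.56 and 12.96 in sa, 10.19 and 10.19 in magn[12c]/magn[23b], 10.94 and 10.96 in magn[12c]/magn[12c];pSC2, and 9.98, 9.07 and 9.78 in WT. The aly and sa arrays overlapped, and both groups lay well above the magn arrays. The log2 change was 2.97 in aly (SE 0.20, limma adjusted p = 9.2e-09), 3.03 in sa (SE 0.20, adjusted p = 1.72e-08) and 1.34 in magn[12c]/magn[12c];pSC2 (SE 0.23, adjusted p = 0.000174). In magn[12c]/magn[23b] it was 0.58 and was not called.

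mRpL21, a large subunit protein of bacterial type, had the largest rise of all in aly. It read 12.42, 12.69 and 12.13 in aly, 9.83, 10.34 and 10.45 in sa, 10.33 and 10.19 in magn[12c]/magn[23b], 10.50 and 10.25 in magn[12c]/magn[12c];pSC2, and 9.36, 8.48 and 8.78 in WT. The sa and magn arrays were intermixed, unlike the steps seen for most members. The log2 change against WT was 3.54 in aly (SE 0.23, limma adjusted p = 6.28e-09), 1.33 in sa, 1.39 in magn[12c]/magn[23b] and 1.5 in magn[12c]/magn[12c];pSC2, all called.

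The remaining members among the largest rises were mRpL41, mRpL17 and mRpL4 in aly, mRpL49, mRpL52 and mRpL4 in sa, and mRpS26, mRpS16, mRpL14 and mRpL47 in the magn genotypes. mRpL4, whose bacterial counterpart lines the tunnel for the nascent chain, changed by 3.26 in aly and 2.62 in sa, and by 0.73 in magn[12c]/magn[23b] and 0.75 in magn[12c]/magn[12c];pSC2, where it was not called. mRpL17, a tunnel exit protein, changed by 3.28 in aly and 2.33 in sa, by 0.50 in magn[12c]/magn[23b], not called, and by 1.00 in magn[12c]/magn[12c];pSC2. mRpL52 and mRpS26, both without bacterial counterparts, rose in all 4 mutant genotypes. mRpL52 rose by 3.02 in aly, 2.78 in sa, 1.26 in magn[12c]/magn[23b] and 1.64 in magn[12c]/magn[12c];pSC2, and mRpS26 by 3.14 in aly, 2.45 in sa, 1.42 in magn[12c]/magn[23b] and 1.82 in magn[12c]/magn[12c];pSC2. mRpS16, of bacterial type, rose by 2.37 in aly, 1.25 in sa, 1.35 in magn[12c]/magn[23b] and 1.5 in magn[12c]/magn[12c];pSC2. mRpL14, a protein of bacterial type on the face toward the small subunit, rose by 2.46 in aly, 2.09 in sa, 1.29 in magn[12c]/magn[23b] and 1.75 in magn[12c]/magn[12c];pSC2.

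mRpS2, a small subunit protein of bacterial type, had one of the 3 lowest means of the members. It read 9.44, 9.36 and 9.29 in aly, 8.28, 8.40 and 8.91 in sa, 8.55 and 8.23 in magn[12c]/magn[23b], 8.50 and 8.69 in magn[12c]/magn[12c];pSC2, and 8.07, 7.89 and 7.58 in WT. Every mutant array lay above every WT array, and the sa and magn arrays were intermixed. It rose by 1.52 in aly (SE 0.21, limma adjusted p = 1.41e-05), and its changes of 0.68 in sa and of 0.54 to 0.75 in the magn combinations were not called.

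**Figure D3:**
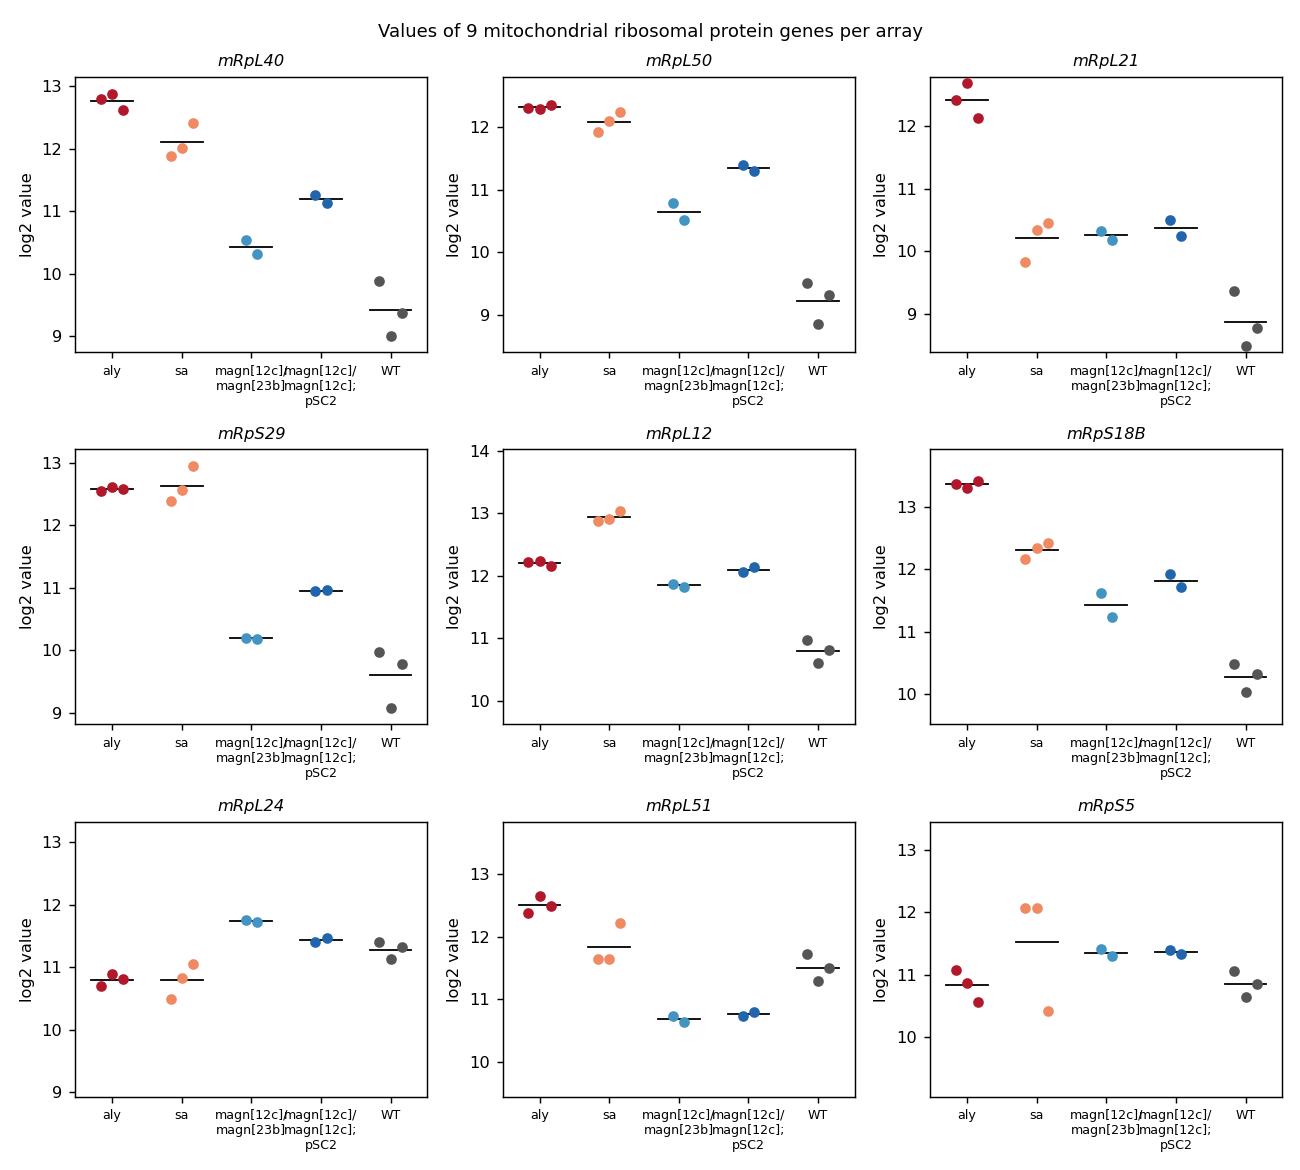
Log2 values of 9 members per array, with 1 point per array, genotypes in columns, bars at the group mean, and panels that cover the same number of log2 units. mRpL40, mRpL50 and mRpS18B step down from aly to WT, mRpS29 and mRpL12 are as high or higher in sa than in aly, and mRpL24, mRpL51 and mRpS5 lack the common pattern.

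The exceptions were few and were chosen after their values were seen. mRpL24, whose bacterial counterpart begins assembly of the large subunit, read 10.70, 10.89 and 10.81 in aly, 10.49, 10.82 and 11.05 in sa, 11.76 and 11.73 in magn[12c]/magn[23b], 11.41 and 11.46 in magn[12c]/magn[12c];pSC2, and 11.39, 11.12 and 11.32 in WT. All aly and sa arrays lay below all WT arrays, and all magn arrays above them. The log2 change was -0.48 in aly (SE 0.14, limma adjusted p = 0.00703) and -0.49 in sa (SE 0.14, adjusted p = 0.00661), under 2-fold and so not called. It was 0.46 in magn[12c]/magn[23b] (adjusted p = 0.025) and 0.15 in magn[12c]/magn[12c];pSC2 (adjusted p = 0.418). mRpL24 was the single member whose arrays lay wholly below WT in aly and in sa, where 28.8% and 25.7% of all genes did.

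mRpL51, a large subunit protein without a bacterial counterpart, moved the other way in magn. It read 12.38, 12.65 and 12.50 in aly, 11.65, 11.64 and 12.22 in sa, 10.74 and 10.64 in magn[12c]/magn[23b], 10.74 and 10.80 in magn[12c]/magn[12c];pSC2, and 11.73, 11.29 and 11.51 in WT. The magn arrays lay below all WT arrays, with log2 changes of -0.82 in magn[12c]/magn[23b] (SE 0.18, limma adjusted p = 0.00202) and -0.74 in magn[12c]/magn[12c];pSC2 (SE 0.18, adjusted p = 0.00299), again under 2-fold. mRpL51 was the single member with both magn[12c]/magn[12c];pSC2 arrays below WT, where 26.3% of all genes were, and in magn[12c]/magn[23b] mRpL13, mRpL51 and mRpS17 lay below WT, where 23.5% were. In aly the change was 1.00 (SE 0.16, adjusted p = 6.48e-05), just past 2-fold, and in sa it was 0.33 with overlapping arrays.

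mRpS5, of bacterial type, varied within the sa group: it read 11.08, 10.87 and 10.56 in aly, 12.06, 12.08 and 10.43 in sa, 11.41 and 11.30 in magn[12c]/magn[23b], 11.40 and 11.33 in magn[12c]/magn[12c];pSC2, and 11.06, 10.64 and 10.86 in WT. Its sa replicate 3 lay below all WT arrays and the other sa arrays above them, although sa replicate 3 was the highest of the sa group for 63 members. The other members called in no mutant were mRpL13, mRpL28, mRpS17, mRpS21 and mRpS33. In aly their log2 changes were 0.55 for mRpL13, 0.90 for mRpL28, 0.67 for mRpS17, 0.76 for mRpS21 and 0.93 for mRpS33.

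Members named for each subunit, and of each origin, were among those that rose. For comparison, 45.6% of all genes tested rose in aly, 40.9% in sa, 25.5% in magn[12c]/magn[23b] and 32.2% in the other magn combination. Of the 44 members named for the large subunit 40 rose in aly, 40 in sa, 17 in magn[12c]/magn[23b] and 27 in magn[12c]/magn[12c];pSC2, with median log2 changes of 2.46 in aly, 1.84 in sa, 0.76 in magn[12c]/magn[23b] and 1.18 in magn[12c]/magn[12c];pSC2. Of the 25 members named for the small subunit, mRpS30 and mRpS18A included despite their place in mammalian structures, 20 rose in aly (median 1.92), 19 in sa (1.40), 7 in magn[12c]/magn[23b] (0.75) and 14 in magn[12c]/magn[12c];pSC2 (1.10). Of the 25 members without a bacterial counterpart 24 rose in aly (median 2.70), 23 in sa (2.07), 10 in magn[12c]/magn[23b] (0.78) and 18 in magn[12c]/magn[12c];pSC2 (1.17). Of the 42 members of bacterial type 34 rose in aly (median 2.09), 34 in sa (1.43), 14 in magn[12c]/magn[23b] (0.74) and 21 in magn[12c]/magn[12c];pSC2 (0.99). In magn[12c]/magn[23b] the count of the small subunit names was close to the share of all genes. These classes describe the members and were not tested against each other, and mRpS28 and mRpS35 were left unclassed.

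The factor stalk and GTPase centre, where elongation factors dock, was covered by mRpL10, mRpL11 and mRpL12, and all 3 rose in aly and in sa. mRpL12, which in human mitochondria also binds the mitochondrial RNA polymerase, read 12.21, 12.24 and 12.15 in aly, 12.87, 12.90 and 13.03 in sa, 11.87 and 11.82 in magn[12c]/magn[23b], 12.06 and 12.13 in magn[12c]/magn[12c];pSC2, and 10.97, 10.60 and 10.81 in WT. Its sa arrays were the highest. The rise was 1.41 in aly (SE 0.11, limma adjusted p = 3.92e-08) and 2.14 in sa (SE 0.11, adjusted p = 2e-09), and the aly minus sa difference was -0.73 (SE 0.11, adjusted p = 6.73e-05), under 2-fold. Around the peptidyl transferase centre, mRpL2, mRpL3 and mRpL4 all rose in aly and in sa, and 1 of the 3 rose in each magn combination. Of 6 members at the exit of the nascent chain, 5 rose in aly and in sa, mRpL24 being the exception. mRpL45, which in mammals holds the ribosome at the inner membrane, rose by 2.59 in aly, 1.92 in sa and 1.03 in magn[12c]/magn[12c];pSC2. All 6 members of the central protuberance rose in aly and in sa, 2 in magn[12c]/magn[23b] and 5 in magn[12c]/magn[12c];pSC2. Of all genes tested 45.6% rose in aly, 40.9% in sa, 25.5% in magn[12c]/magn[23b] and 32.2% in magn[12c]/magn[12c];pSC2. The magn counts around the peptidyl transferase centre were close to those shares. So was the magn[12c]/magn[23b] count of the central protuberance.

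Animals have 3 mitochondrial relatives of the bacterial protein S18, and they differed in size of change. mRpS18B read 13.37, 13.29 and 13.40 in aly, 12.17, 12.34 and 12.42 in sa, 11.62 and 11.23 in magn[12c]/magn[23b], 11.92 and 11.71 in magn[12c]/magn[12c];pSC2, and 10.48, 10.03 and 10.32 in WT. It rose in every mutant, by 3.08 in aly (SE 0.14, limma adjusted p = 1.46e-10), 2.03 in sa, 1.15 in magn[12c]/magn[23b] and 1.54 in magn[12c]/magn[12c];pSC2. Its probe set is of a kind that may be shared by transcripts of several genes. mRpS18A, which mammalian structures place in the large subunit, rose by 1.72 in aly, 1.22 in sa and 1.13 in magn[12c]/magn[12c];pSC2, and its change of 0.94 in magn[12c]/magn[23b] was not called. mRpS18C read 11.41, 11.81 and 11.42 in aly and 11.73, 11.45 and 11.85 in sa, against 10.89, 10.37 and 10.59 in WT. It was called in sa, with a change of 1.07, and not in aly (0.93), magn[12c]/magn[23b] (0.30) or magn[12c]/magn[12c];pSC2 (0.51). The sa call was lost without WT replicate 2 (0.94) and without sa replicate 3 (0.98), and the aly change was called without aly replicate 1 (1.00) or without WT replicate 1 (1.07). No test of the differences between these genes was made.

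aly and sa testes were then compared directly. Of the 69 members 9 were called higher in aly and 0 lower, or 13%, where 18.8% of all genes were called higher and 21.2% lower, so calls were no more frequent than over all genes. The median difference was 0.54 against 0.05 over all genes, and in 45 members all aly arrays lay above all sa arrays, against 36.2% of all genes, while mRpL12 and mRpS7 lay below them, against 31.7%. The count was 2 without sa replicate 1 and 15 without sa replicate 3. mRpL21 had the largest difference, 2.21 (SE 0.23, limma adjusted p = 2.41e-06). mRpL2, which forms part of the peptidyl transferase region, read 12.03, 12.51 and 12.21 in aly and 10.67, 10.93 and 11.47 in sa, a difference of 1.23 (SE 0.25, adjusted p = 0.000734). mRpL27, of bacterial type, differed by 1.15, and mRpS16 by 1.11 (SE 0.17, adjusted p = 8.02e-05).

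The mean of the magn combinations lay below aly for most members. There 46 of 69 were called lower and 0 higher, or 66.7%, where 33.4% of all genes were lower and 26.2% higher, with a median of -1.43 against -0.32. All magn arrays lay below all aly arrays for 65 members and above them for 2, where 45.8% and 30.1% of all genes did. Against sa 25 were called lower and 0 higher, or 36.2%, where 19.4% were lower and 19.1% higher, with a median of -0.85 against -0.21. All magn arrays lay below all sa arrays for 48 members and above them for 1, where 35.9% and 23.1% did. The count against sa was 14 without sa replicate 3. The largest differences from aly were those of mRpL17 at -2.53 (SE 0.18, limma adjusted p = 2.51e-08), mRpL4 at -2.52, mRpL41 at -2.24 and mRpL49 at -2.11. The largest differences from sa were those of mRpS29 at -2.07 (SE 0.19, limma adjusted p = 9.74e-07), mRpL4 at -1.88, mRpL49 at -1.79 and mRpS28 at -1.72. mRpL24 ran the other way, higher in magn by 0.79 than in aly and by 0.80 than in sa, under 2-fold in both.

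Between the magn combinations no member was called. limma called 0 of 69 in magn[12c]/magn[23b] minus magn[12c]/magn[12c];pSC2, where 7.94% of all genes were called higher and 2.14% lower. Looser thresholds were also read, without the shares of all genes that pass them, so those counts describe the members only. At an unadjusted p under 0.05, 18 members were lower and 0 higher in magn[12c]/magn[23b]. At an adjusted p under 0.05 with any fold, 3 were lower: mRpL13 by -0.61 (SE 0.16, adjusted p = 0.0232), mRpL50 by -0.70 (SE 0.20, adjusted p = 0.0284) and mRpL40 by -0.77 (SE 0.24, adjusted p = 0.0493). In 43 members both magn[12c]/magn[23b] arrays lay below both magn[12c]/magn[12c];pSC2 arrays, against 35% of all genes, and above them in 2, against 27.3%. The accessory gland sum differed between these genotypes, as given above, and its part was not tested.

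Genes of the cytosolic ribosome also rose in the mutants, and the members were set against them. The median of 28 cytosolic ribosomal protein genes was 14.51 to 14.70 in aly, 14.61 to 14.66 in sa, 14.30 and 13.90 in magn[12c]/magn[23b], 14.37 and 14.32 in magn[12c]/magn[12c];pSC2, and 12.94 to 13.36 in WT. Of these genes 23 rose in aly, 24 in sa, 11 in magn[12c]/magn[23b] and 21 in magn[12c]/magn[12c];pSC2, with 0 falling. Of all genes tested 45.6% rose in aly, 40.9% in sa, 25.5% in magn[12c]/magn[23b] and 32.2% in magn[12c]/magn[12c];pSC2. The magn[12c]/magn[23b] count lay closest to its share. The 28 genes were those found by symbol with a probe set of exactly 1 gene symbol, without copies raised in testis or germline. When each array was centred on the median of these genes, every change from WT shifted by the same amount, 1.39 in aly, 1.43 in sa, 0.91 in magn[12c]/magn[23b] and 1.15 in magn[12c]/magn[12c];pSC2.

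On that scale the members were still higher in aly, while the magn rises were gone. In aly 33 members were called higher and 2 lower, where 20.4% of all genes were higher and 42.8% lower, and the median change was 0.98. In sa 13 were higher and 4 lower, where 10.1% were higher and 44.4% lower, with a median of 0.24. In magn[12c]/magn[23b] 0 were higher and 5 lower, with a median of -0.16, and in magn[12c]/magn[12c];pSC2 0 were higher and 4 lower, with a median of -0.01. The shares of all genes were 7.58% higher and 33.2% lower in magn[12c]/magn[23b], and 7.8% higher and 39.5% lower in magn[12c]/magn[12c];pSC2. The aly minus sa median was 0.59, with 10 members higher and 0 lower where 20% of all genes were higher and 20.7% lower. The magn mean minus aly median was -1.07, with 39 lower and 1 higher where 25.5% were lower and 30.5% higher. The magn mean minus sa median was -0.44, with 7 lower and 1 higher, mRpL24. The 7 were 10.1% of the members, and 10.1% of all genes were lower and 25.8% higher. Calls lower than sa were thus no more frequent among the members on this scale. Members called lower on this scale were mRpL24 (-1.86) and mRpS5 (-1.40) in aly, and mRpL24 (-1.92), mRpL51 (-1.11), mRpL28 (-1.03) and mRpL13 (-1.01) in sa. mRpL51, mRpS17 and mRpS21 were lower in both magn combinations, mRpL51 at -1.72 in magn[12c]/magn[23b] and -1.89 in magn[12c]/magn[12c];pSC2, mRpS17 at -1.21 in magn[12c]/magn[23b] and -1.30 in magn[12c]/magn[12c];pSC2, and mRpS21 at -1.01 in magn[12c]/magn[23b] and -1.11 in magn[12c]/magn[12c];pSC2. mRpL13 (-1.33) and mRpS6 (-1.17) were also called lower in magn[12c]/magn[23b], and mRpS14 (-1.24) in magn[12c]/magn[12c];pSC2. Centring on all genes tested instead gave 58 higher in aly, 44 in sa, 4 higher and 1 lower in magn[12c]/magn[23b], and 19 higher and 1 lower in magn[12c]/magn[12c];pSC2. The shares of all genes called after that centring are not given here, so these counts describe the members only.

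**Figure D4:**
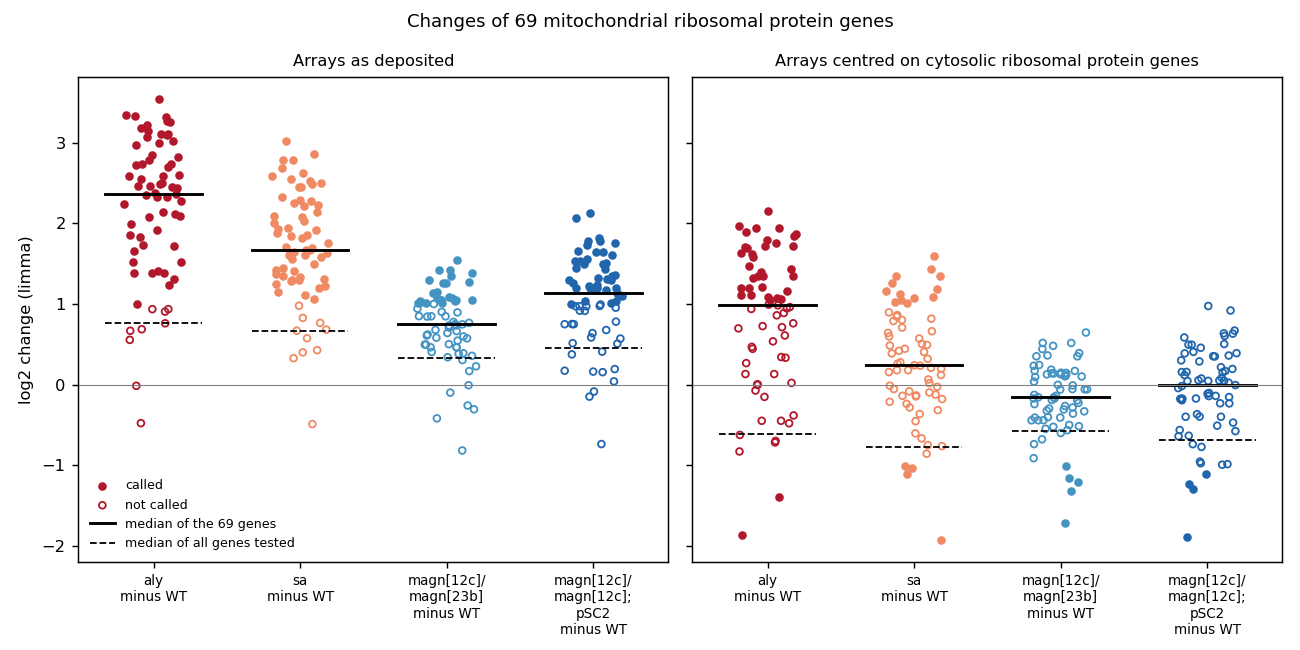
Log2 change of each of the 69 members in each mutant genotype minus WT, on the arrays as deposited (left) and after centring each array on 28 cytosolic ribosomal protein genes (right). Filled points were called, open points were not, solid lines mark the members' median and dashed lines the median of all genes tested. The members' median lies above that of all genes in every column of both panels, and the centred magn columns have no member called higher.

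Other nuclear genes of mitochondrial gene expression were read from lists of translation factors, aminoacyl-tRNA synthetases, ribosome assembly and RNA processing factors, and factors of mitochondrial DNA transcription and replication. In that order the lists held 11, 32, 20 and 11 symbols, of which 9, 18, 11 and 7 matched a tested gene. The counts below cover only the tested genes. On the arrays as deposited, 45.6% of all genes rose in aly, 40.9% in sa, 25.5% in magn[12c]/magn[23b] and 32.2% in magn[12c]/magn[12c];pSC2. Each list was also read with arrays centred on the cytosolic ribosomal protein genes, a scale whose shares of all genes are given above. Of 11 tested assembly and processing genes, 11 rose in aly, 11 in sa, 3 in magn[12c]/magn[23b] and 5 in magn[12c]/magn[12c];pSC2, with 0 falling on the deposited scale, and the median was 3.02 in aly, 1.77 in sa, 0.74 in magn[12c]/magn[23b] and 0.61 in magn[12c]/magn[12c];pSC2. The count in magn[12c]/magn[23b] was close to the 25.5% of all genes. After centring 8 rose in aly and 3 in sa with 0 falling, and 1 rose and 2 fell in each magn combination. mTerf5, of the family of mitochondrial transcription termination factors, rose by 4.36 in aly, 3.45 in sa, 1.17 in magn[12c]/magn[23b] and 2.13 in magn[12c]/magn[12c];pSC2. bsf, which binds mitochondrial RNA, rose by 3.02 in aly, 2.61 in sa and 1.66 in magn[12c]/magn[12c];pSC2. Its change of 0.88 in magn[12c]/magn[23b] was not called. Of 7 genes for mitochondrial DNA transcription and replication, 7 rose in aly, 7 in sa, 0 in magn[12c]/magn[23b] and 3 in magn[12c]/magn[12c];pSC2, and the median was 2.65 in aly, 2.08 in sa, 0.27 in magn[12c]/magn[23b] and 0.84 in magn[12c]/magn[12c];pSC2. After centring 6 rose in aly and 2 in sa with 0 falling, and 0 rose and 1 fell in each magn combination. PolrMT, the mitochondrial RNA polymerase, rose by 3.30 in aly, 2.69 in sa and 1.87 in magn[12c]/magn[12c];pSC2, and TFAM, which packages mitochondrial DNA, by 1.82 in aly, 2.19 in sa and 1.38 in magn[12c]/magn[12c];pSC2.

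The synthetases and translation factors contained genes that fell. Of 18 tested synthetase genes, some of which also serve the cytosol, 16 rose and 1 fell in aly, 13 rose and 1 fell in sa, 7 rose and 0 fell in magn[12c]/magn[23b], and 8 rose and 1 fell in magn[12c]/magn[12c];pSC2. After centring 12 rose and 2 fell in aly, and 4 rose and 2 fell in sa. In magn[12c]/magn[23b] 2 rose and 5 fell, and in magn[12c]/magn[12c];pSC2 2 rose and 7 fell. On that scale 42.8% of all genes fell in aly, 44.4% in sa, 33.2% in magn[12c]/magn[23b] and 39.5% in magn[12c]/magn[12c];pSC2. Of all genes 20.4% rose in aly, 10.1% in sa, 7.58% in magn[12c]/magn[23b] and 7.8% in magn[12c]/magn[12c];pSC2. The falls among the synthetases in magn were close to the shares of all genes. Slimp, a relative of seryl-tRNA synthetase, rose by 4.65 in aly, 3.02 in sa and 1.04 in magn[12c]/magn[12c];pSC2. LeuRS-m, which charges leucine tRNA, rose by 4.57 in aly and 1.88 in sa. The other magn changes of these genes were not called. MetRS-m rose by 4.01 in aly, 2.12 in sa, 3.64 in magn[12c]/magn[23b] and 3.96 in magn[12c]/magn[12c];pSC2, so in this gene the magn changes were larger than in sa. CysRS-m fell by 2.61 in aly, 2.13 in sa and 1.11 in magn[12c]/magn[12c];pSC2. Of 9 translation factor genes, 7 rose and 1 fell in aly, 5 rose and 1 fell in sa, 3 rose and 1 fell in magn[12c]/magn[23b], and 5 rose and 1 fell in magn[12c]/magn[12c];pSC2. After centring 4 rose and 2 fell in aly, and 1 rose and 4 fell in sa. In magn[12c]/magn[23b] 1 rose and 3 fell, and in the other magn combination 1 rose and 4 fell. In sa and both magn combinations the falls were close to the shares of all genes on that scale.

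The elongation factor Tu genes of mitochondria went in opposite directions. mEFTu1 averaged 12.63 in aly and 9.59 in WT and rose by 3.04 in aly (SE 0.22, limma adjusted p = 1.48e-08) and 2.14 in sa. It rose by 1.30 in magn[12c]/magn[12c];pSC2, and its change of 0.26 in magn[12c]/magn[23b] was not called. mEFTu2 averaged 10.13 in aly and 13.09 in WT and fell by 2.96 in aly (SE 0.16, limma adjusted p = 5.66e-10), by 2.60 in sa, by 1.13 in magn[12c]/magn[23b] and by 1.65 in magn[12c]/magn[12c];pSC2. mIF3, an initiation factor, rose by 3.63 in aly, 1.36 in sa, 2.43 in magn[12c]/magn[23b] and 2.36 in magn[12c]/magn[12c];pSC2. mRF1, a release factor, rose by 3.21 in aly, 3.65 in sa, 1.44 in magn[12c]/magn[23b] and 1.61 in magn[12c]/magn[12c];pSC2.

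**Figure D5:**
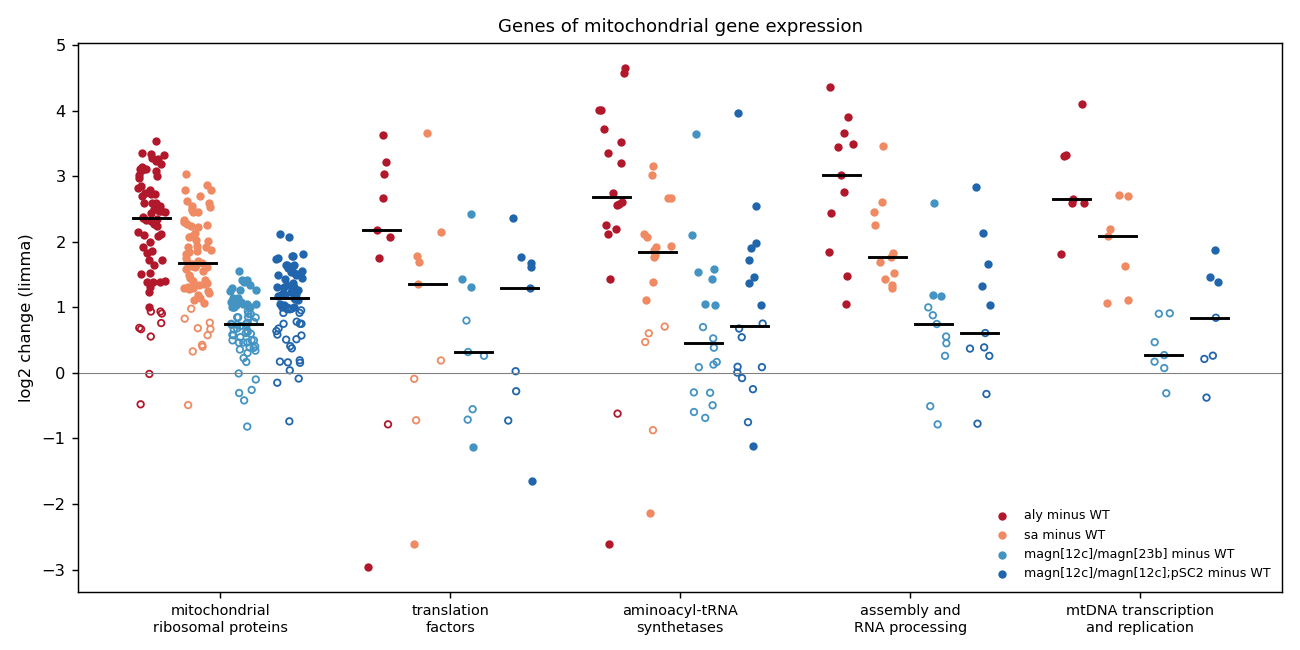
Log2 change from WT of the 69 members and of the genes of 4 lists of mitochondrial gene expression, coloured by mutant genotype, with 1 point per gene, filled where called and open where not, and black bars at the list median. In aly and sa every list has a median above 1, and the points below -2 are mEFTu2 among the translation factors and CysRS-m among the synthetases.

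Proteins of the mitochondrial ribosome also occur under other names. tko, the mitochondrial S12 whose mutants are bang-sensitive, read 11.74, 12.00 and 11.87 in aly, 11.26, 11.07 and 11.71 in sa, 10.19 and 9.96 in magn[12c]/magn[23b], 10.57 and 10.46 in magn[12c]/magn[12c];pSC2, and 9.70, 8.92 and 9.25 in WT. It rose by 2.58 in aly, 2.05 in sa and 1.22 in magn[12c]/magn[12c];pSC2, and its change of 0.78 in magn[12c]/magn[23b] was not called. bonsai, the mitochondrial S15, rose by 1.99 in aly, 1.86 in sa and 1.40 in magn[12c]/magn[12c];pSC2, with 0.63 in magn[12c]/magn[23b], not called. Both followed the order of the genotypes seen for most members. The transcripts encoded by mitochondrial DNA itself were not analysed here.

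Members lie on the X chromosome (11) and on the autosomal arms 2L (12), 2R (10), 3L (17) and 3R (19), and no member is the next annotated gene to another in the RefSeq table (assembly Release 6 plus ISO1 MT). The median change of X-linked members was 2.33 in aly, 2.00 in sa, 0.75 in magn[12c]/magn[23b] and 1.26 in magn[12c]/magn[12c];pSC2. For the 58 autosomal members it was 2.37 in aly, 1.65 in sa, 0.76 in magn[12c]/magn[23b] and 1.07 in magn[12c]/magn[12c];pSC2. Over all genes tested, X-linked and autosomal medians were 1.11 and 0.72 in aly, 0.91 and 0.62 in sa, 0.35 and 0.33 in magn[12c]/magn[23b], and 0.41 and 0.47 in magn[12c]/magn[12c];pSC2. The second probe sets of mRpS11 and mRpL47 changed by 1.76 and 3.29 in aly, 1.05 and 2.50 in sa, 0.97 and 1.20 in magn[12c]/magn[23b], and 1.44 and 1.67 in magn[12c]/magn[12c];pSC2.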

How the data were processed

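Testis RNA of 13 samples in 5 genotype groups was measured on Affymetrix arrays, 1 per sample. The authors deposited log2 values per probe set, made with GCRMA per the submitters' processing notes; its version is not given in the sources used here. A gene entered the tests if 3 or more of its 13 log2 values exceeded 4. The 5 groups were fitted together in limma 3.58.1 under R 4.3.3 (lmFit, eBayes with an intensity trend), with Benjamini-Hochberg adjustment over 8719 genes in each comparison. The fit was also run on simulated independent arrays with few changed genes. That simulation had no shifts shared by whole arrays or by most genes, so it does not show how the fit handles such shifts. Tables and figures used Python 3.11.15, pandas 2.3.3, numpy 2.4.6 and matplotlib 3.10.9. The RefSeq gene table (assembly Release 6 plus ISO1 MT) held all 69 members under the same symbol.

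Genes were named by rule: the mutated genes, the 6 largest changes per direction from WT and 4 between mutants among called members with arrays apart, the 3 highest and 3 lowest means, the mRpS18 genes, mRpL12 and mRpS29, and up to 4 genes per pathway list. Genes given as exceptions or within a role group fall outside it and were chosen after their values were seen. The members and lists were chosen with earlier results of these data known. The series' text calls the replicates biological, without saying how they were separated, so p-values measure the spread between these samples. Precision is limited by how few arrays there are. Other settings tried were the filter, normalization, centring, a fit with array weights or no trend, a lower fold minimum, the mean of a gene's probe sets, other arrays and groups in the fit, a replicate block, and leaving out each array. No scan dates were at hand, so batches were not examined.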

Additional observations from a re-analysis of the deposited data

Results flagged for a closer look

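Some members were called in direct comparisons between the mutants. limma called 9 members higher in aly than in sa and 0 lower, or 13% of the members. Of all genes 18.8% were called higher and 21.2% lower, so calls were no more frequent among the members. The count was 2 without sa replicate 1 and 15 without sa replicate 3. Among the 9 were mRpL21 (2.21), mRpL2 (1.23), mRpL27 (1.15) and mRpS16 (1.11), as log2 differences. It called 46 members, or 66.7%, in the mean of the magn combinations minus aly, where 33.4% of all genes were called lower, with mRpL17 (-2.53), mRpL4 (-2.52), mRpL41 (-2.24) and mRpL49 (-2.11) the largest, all lower in magn. It called 25, or 36.2%, in the mean of the magn combinations minus sa, where 19.4% were called lower, with mRpS29 (-2.07), mRpL4 (-1.88), mRpL49 (-1.79) and mRpS28 (-1.72) the largest, all lower in magn. Without sa replicate 3 it called 14 there.

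Another 2 probe sets pair a mitochondrial ribosomal protein gene with a second gene and entered no comparison. The one shared by CG33155 and mRpL53 averaged 13.17 in aly and 11.07 in WT, a log2 difference of 2.1, with 1.57 in sa, 0.89 in magn[12c]/magn[23b] and 1.25 in magn[12c]/magn[12c];pSC2. The one shared by CG34316 and mRpS10 averaged 11.63 in aly and 10.96 in WT, a difference of 0.67, with 0.25 in sa, -0.33 in magn[12c]/magn[23b] and -0.37 in magn[12c]/magn[12c];pSC2. The signal of neither has a single gene. No group has 4 arrays, so single arrays were not tested as outliers.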

How the results depend on the processing

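With arrays centred on cytosolic ribosomal protein genes, the members called numbered 35 in aly, 17 in sa and 8 in magn minus sa (1 higher, 7 lower). They numbered 5 in magn[12c]/magn[23b] (0 higher, 5 lower) and 4 in magn[12c]/magn[12c];pSC2 (0 higher, 4 lower). None of the members lower in a magn combination had been called higher in it on the deposited scale. Of all genes 33.2% were called lower after centring in magn[12c]/magn[23b], 39.5% in magn[12c]/magn[12c];pSC2 and 10.1% in magn minus sa. On the centred scale every change is read relative to the cytosolic genes. Of the members called, 6 turned sign there in aly minus WT, 15 in sa minus WT, 0 in magn[12c]/magn[23b] minus WT and 7 in magn[12c]/magn[12c];pSC2 minus WT. Of all 69, called or not, 13 did in aly, 24 in sa, 37 in magn[12c]/magn[23b] and 32 in magn[12c]/magn[12c];pSC2. Those named by rule were, in sa minus WT, mRpL2 (-0.29), mRpL21 (-0.10), mRpL27 (-0.09), mRpS16 (-0.18), mRpS18A (-0.21) and mRpS18C (-0.37), and, in magn[12c]/magn[12c];pSC2 minus WT, mRpL17 (-0.14), mRpL41 (-0.01), mRpL45 (-0.12) and mRpS18A (-0.02). Centring on all genes gave 5 in magn[12c]/magn[23b] and 20 in magn[12c]/magn[12c];pSC2. Quantile normalization gave 10 in magn[12c]/magn[23b] and 5 in aly minus sa. A 1.5-fold minimum gave 45 in magn[12c]/magn[23b], 34 in aly minus sa, 3 between the magn combinations and 49 in magn minus sa. For centring on all genes, quantile normalization, this fold minimum and left-out arrays, the shares of all genes are not given here. Those counts describe the members only. Leaving out each array in turn gave 59 to 62 members in aly, 57 to 60 in sa, 11 to 32 in magn[12c]/magn[23b], 35 to 50 in magn[12c]/magn[12c];pSC2, 2 to 15 in aly minus sa, 0 to 0 between the magn combinations, 44 to 48 in magn minus aly and 14 to 32 in magn minus sa. A magn combination left with 1 array was assumed to vary like the other groups. Counts stayed within 1.5 times of those reported under the other filters, the mean of a gene's probe sets, no trend, array weights (whose estimation stopped before converging), fits of the compared groups alone and magn as 1 group, where magn minus WT had 29. The correlation of deviations exceeded 0.1 in 7 of 23 pairs of arrays with a shared replicate number, was negative in 11, and ran between -0.27 and 0.24. With so few arrays per group, these values cannot settle whether replicate numbers mark a shared batch. A replicate block gave 60, 59, 24, 46, 9, 0, 45 and 25 members, in the order aly, sa, magn[12c]/magn[23b] and magn[12c]/magn[12c];pSC2 minus WT, aly minus sa, between the magn combinations, magn minus aly and magn minus sa. The causes of these shifts were not tested.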
